A study of Oncorhynchus mykiss with 15 samples.

Results

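The group labelled R3h was compared with the group labelled H24h in liver of rainbow trout (Oncorhynchus mykiss), across all genes. The count columns of these groups were taken, 3 libraries a side, which is 6 of the 15 libraries of the series. Of 34965 genes in the table, 17502 had a mean of at least 0.5 FPKM (fragments scaled to gene length and library size) over the 15 libraries and were tested. All fish were 150 days old, no genetic change is named, and every library is from liver RNA. The series studies hypoxia of different durations, and its other groups are N, H3h and H12h with 3 libraries each. H24h carries 24 h in its name and R3h carries 3 h. The labels do not spell out H and R, so the code names are kept, and condition, elapsed time and time of day cannot be told apart. No label ties a library to a fish of its own, and p-values therefore cover only the spread between libraries, which may be technical.

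Cells meet low oxygen through the hypoxia-inducible factor (HIF), a transcription factor whose alpha subunit is marked for destruction by the EGLN prolyl hydroxylases when oxygen is present. The liver also makes plasma proteins, bile acids and glucose. Interferon turns on antiviral genes, among them MX, IFIT and RSAD2, and fish carry large families of TRIM genes, which encode ubiquitin ligases.

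The 6 libraries held 53993396 to 65922994 counts, so depth was alike on both sides. R3h replicate 3 stood apart from the other R3h libraries. Its mean correlation with them over tested genes, in log2 CPM (counts scaled to library size), was 0.733, and 21443 genes reached 10 counts in it, the lowest number of the 15 libraries. In 6578 of the tested genes (37.6%) it lay over 2-fold outside both other R3h libraries, against 6.62% for R3h replicate 1 and 11.9% for R3h replicate 2. The median SD within the group (log2 CPM) was 0.696 in R3h and 0.403 in H24h. By mean correlation, each R3h library was at least as close to the H24h libraries as to the other libraries of its own group. The values were 0.916 against 0.839 for replicate 1, 0.905 against 0.811 for replicate 2 and 0.739 against 0.733 for replicate 3. The own-group means of replicates 1 and 2 each include replicate 3 and are lowered by it. They are not the correlation between replicates 1 and 2, and do not mean that these were closer to H24h than to each other. What sets R3h replicate 3 apart could not be settled from these files, so R3h means pool unlike libraries. Values without single libraries are given beside the results that they move most.

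No gene passed the quasi-likelihood F-test of edgeR at an adjusted p under 0.05, either higher or lower in R3h (0% of 17502 each). The smallest adjusted p was 0.516. At an unadjusted p under 0.05, 915 genes were higher (5.23%) and 374 lower (2.14%). DESeq2 called 27 genes higher and 24 lower, and limma-voom with library weights called 2 higher and 0 lower. All genes below are therefore described by their values, and their adjusted p by edgeR ran from 0.516 to 0.98. As a plain measure of separation, 380 genes (2.17%) had all 3 R3h libraries above all 3 H24h libraries in FPKM, and 759 (4.34%) had all 3 below. Counts of separated genes in a list are read against these shares. The median log2 fold change of all tested genes was -0.01, and 8622 of them were above 0. Fold changes are log2 values of the edgeR model ± SE, with n = 3 libraries per group.

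**Figure D1:**
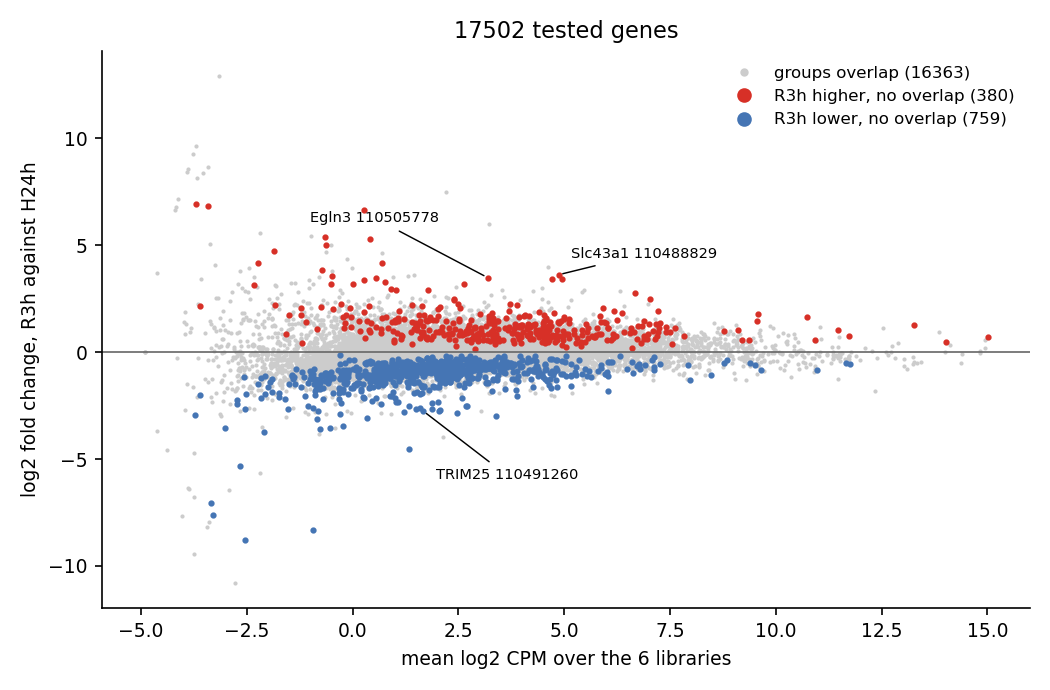
Each point is 1 of the 17502 tested genes, placed by its mean log2 CPM over the 6 libraries (horizontal) and its log2 fold change in R3h against H24h (vertical). The 380 genes whose R3h values all exceed H24h are red and the 759 whose R3h values are all lower are blue. Egln3 and Slc43a1, labelled, lie at 3.48 and 3.62, and the labelled TRIM25 copy at -2.75.

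All 6 tested genes of the EGLN prolyl hydroxylase family had a positive fold change, with a median of 1.32. In 4 of the 6 (66.7%, against 2.17% of all genes) the groups did not overlap and R3h was higher. Egln3 (110505778, chromosome 25), itself a HIF target, stood at 0.77, 0.62 and 1.56 FPKM in H24h and at 6.24, 2.93 and 21.1 FPKM in R3h (3.48 ± 0.77). Its lowest R3h library was above the highest H24h library. The group means were 0.983 ± 0.505 FPKM in H24h, 10.1 ± 9.68 in R3h and 13.3 ± 3.76 in H12h (SD, n = 3). EGLN1 (110486061), the main oxygen sensor, stood at 4.15, 3.78 and 4.3 FPKM in H24h and 6.72, 7.57 and 9.95 FPKM in R3h (1.04 ± 0.29). The second copy, Egln1 (101268917), gave 3.08, 2.43 and 4.43 FPKM against 5.7, 6.33 and 9.35 (1.20 ± 0.38). In both copies every H24h library lay below every R3h library. EGLN2 (110507058) stood at 1.75, 1.52 and 1.25 FPKM in H24h and at 2.19, 3.96 and 6.04 in R3h (1.44 ± 0.44). In the remaining family members the groups overlapped. EGLN2 (110503496) had a fold change of 1.54 ± 0.57 that came down to 0.32 without R3h replicate 3, and Egln3 (110497687) had one of 0.39 ± 0.73. Egln1 (101268917) and both EGLN2 copies were chosen after their values were seen.

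The HIF subunit and its other regulators gave smaller or mixed differences. The transcript of hif1a (100135944), the oxygen-controlled subunit, was at 7.11, 4.39 and 6.8 FPKM in H24h and at 4.71, 6.36 and 8.8 in R3h (0.20 ± 0.30), with overlapping groups. The asparagine hydroxylase hif1an (101268916), which blocks HIF activity, was at 6.85, 10.6 and 21.4 FPKM against 30.6, 20 and 5.24 (0.65 ± 0.60). Here R3h replicate 3 was the lowest of the 6 libraries and R3h replicate 1 the highest. Of 94 tested HIF targets, 12 were separated higher (12.8%, against 2.17% of all genes) and 5 lower (5.32%, against 4.34%). In this list 55 genes had a positive fold change, and the median was 0.22, or 0.12 without R3h replicate 3 and 0.32 without H24h replicate 1. Among them ankrd37 (110534293), an ankyrin-repeat protein, stood at 1.27, 0.76 and 1.42 FPKM against 3.01, 1.91 and 5.34 (1.69 ± 0.45). The growth factor of blood vessels, vegfaa (110529696), stood at 4.32, 4.5 and 6.76 FPKM against 7.95, 9.34 and 14.9 (1.11 ± 0.50). In both, every R3h library was above every H24h library. The glucose transporter Slc2a1 (110494474) was at 0.04, 0.06 and 0.1 FPKM against 0.12, 0.18 and 1.46 (3.16 ± 0.95, or 1.24 without R3h replicate 3), separated at a very low level. IGFBP1 (100136312), which binds insulin-like growth factors, ranged from 40.3 to 146 FPKM in H24h and from 0.74 to 79.3 in R3h (-0.68 ± 1.24). The mTOR inhibitor ddit4 (110531799) ranged from 1.37 to 5.13 FPKM in H24h and from 4.3 to 17 in R3h (1.59 ± 1.13, or 0.74 without R3h replicate 2), far below its H12h mean of 257 ± 248 FPKM.

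**Figure D2:**
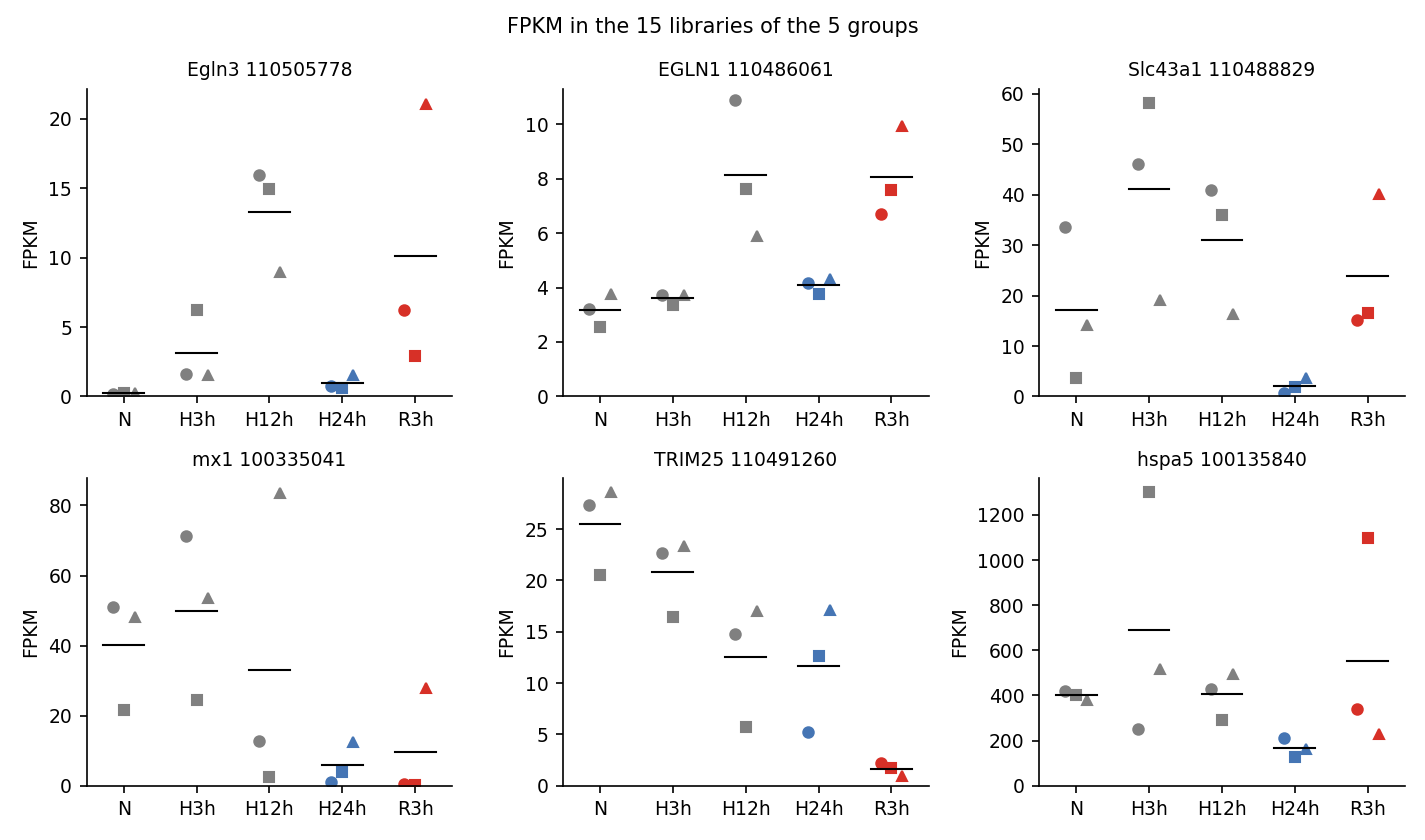
FPKM of 6 genes (vertical, linear axis from 0) in the 15 libraries, by group; circles, squares and triangles are replicates 1, 2 and 3 and bars are means. Egln3 and EGLN1 are higher in R3h than in H24h in all libraries, Slc43a1 is at most 3.58 FPKM in H24h and at least 15.1 in R3h, mx1 is low in R3h replicates 1 and 2 and at 28 FPKM in R3h replicate 3, TRIM25 is lowest in R3h, and hspa5 has its highest R3h value, 1099 FPKM, in replicate 2.

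Genes of carbohydrate use gave mostly small differences. Of 34 tested genes of gluconeogenesis 4 were separated higher (11.8%, against 2.17% of all genes) and 0 lower. Their median of 0.05 ran from -0.07 without H24h replicate 3 to 0.27 without R3h replicate 3. PCK1 (110493880), which commits carbon to glucose synthesis, stood at 12.9, 14.5 and 7.5 FPKM in H24h and at 17.8, 29.5 and 67.8 in R3h (1.69 ± 1.14, or 0.99 without R3h replicate 3). It was separated, yet both groups were below the H12h mean of 477 ± 413 FPKM. Of the glucose-6-phosphatase genes, G6PC (110486384) stood at 0.55, 0.54 and 3.7 FPKM against 4.59, 4.43 and 14.7 (2.49 ± 1.04, or 1.70 without R3h replicate 3 and 3.79 without H24h replicate 3). The more abundant copy, G6PC (110499065), was at 74, 85.9 and 44.2 FPKM against 67.2, 109 and 77.6 (0.29 ± 0.50), and its groups overlapped. The pyruvate carrier of mitochondria is made of MPC1 and MPC2, and single genes for them differed in opposite directions. MPC1 (110499396) stood at 43.9, 52.4 and 81.6 FPKM against 90.8, 89.8 and 195 (1.15 ± 0.37, or 0.69 without R3h replicate 3). MPC2 (110495631) stood at 1.99, 7.61 and 18.4 FPKM against 0.77, 2.42 and 0.39 (-2.90 ± 0.92), with an overlap.

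Most transcripts of the respiratory chain and ATP synthase had positive fold changes, and the median was highest in R3h replicate 3. The median log2 fold change was 0.73 for 38 ATP synthase genes, 0.60 for 74 genes of respiratory complex I and 0.47 for 63 genes of complexes III and IV. Without R3h replicate 3 these medians were 0.31, 0.26 and 0.27. Complex I had 69 of 74 genes above 0, with 14 separated higher (18.9%, against 2.17% of all genes) and 1 lower (1.35%, against 4.34%). Complexes III and IV had 57 of 63 genes above 0, with 4 separated higher (6.35%) and 2 lower (3.17%). ATP synthase had 36 of 38 genes above 0, with 5 separated higher (13.2%) and 0 lower. By library, the median complex I gene lay 0.39, 0.15 and 1.03 above the H24h mean (log2 CPM) in R3h replicates 1, 2 and 3. All 3 R3h libraries were on the same side, and the third was the farthest. The H24h libraries themselves lay at -0.11, 0.12 and -0.06, so R3h replicate 2 was hardly above H24h replicate 2. For complexes III and IV, R3h replicate 2 and H24h replicate 2 both lay at 0.08.

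In single genes too R3h replicate 3 was the highest library. NDUFB6 (110497183, chromosome 19), a small subunit of complex I, stood at 3.91, 2.31 and 4.38 FPKM in H24h and at 6.58, 8.76 and 29.9 in R3h (2.17 ± 0.48, or 1.21 without R3h replicate 3). Its neighbour NDUFB6 (110497180) gave 2.71, 1.05 and 2.41 FPKM against 3.3, 4.53 and 19.1 (2.22 ± 0.55, or 1.04). These genes lie near each other and can share reads. ATP5G3 (110520125), a gene for the c ring of ATP synthase, stood at 28.8, 25 and 40.3 FPKM against 58.5, 66.9 and 110 (1.40 ± 0.33). Without R3h replicate 3 its fold change was 1.09. COX5A (110521232), a subunit of cytochrome c oxidase, stood at 12.1, 7.34 and 9.97 FPKM against 14, 16.5 and 75.2 (1.92 ± 0.50), and without that library its fold change was 0.73. In UQCRB (110496618), a subunit of complex III, the R3h values were 24.7, 18.6 and 64.1 FPKM against 13.2 to 17.2 in H24h (1.35 ± 0.41, or 0.67 without R3h replicate 3).

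Ribosomal and proteasome genes were high in R3h replicate 3. The median of 183 cytosolic ribosomal protein genes was 0.49, and 0.04 without R3h replicate 3. Of these genes 4 were separated higher (2.19%, against 2.17% of all genes) and 1 lower. In R3h replicates 1 and 2 their median lay at 0.06 and -0.00 relative to the H24h mean (log2 CPM), against 1.15 in replicate 3. The ribosomal protein gene rps28 (110508919) stood at 83.3, 45.7 and 75.5 FPKM in H24h and at 57, 86.8 and 654 in R3h (2.05 ± 0.67, or 0.16 without the third library). The proteasome list (105 genes) had a median of 0.55, or 0.20 without that library, 0.87 without R3h replicate 2 and 0.86 without H24h replicate 3. In it 2 genes were separated higher (1.9%) and 0 lower. For 93 mitochondrial ribosomal protein genes the medians were 0.40 and 0.18, and 0.60 without R3h replicate 2, with 5 separated higher (5.38%) and 0 lower. MRPL21 (110506307), of the large mitochondrial subunit, stood at 5.43, 6.73 and 8.49 FPKM against 12.3, 10.4 and 41.6 (1.68 ± 0.45, or 0.80 without that library). The spliceosome protein gene SNRPF (100301729) was likewise separated, at 0.55, 0.37 and 1.07 FPKM against 1.63, 1.9 and 10.9 (2.96 ± 0.66, or 1.53 without R3h replicate 3).

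**Figure D3:**
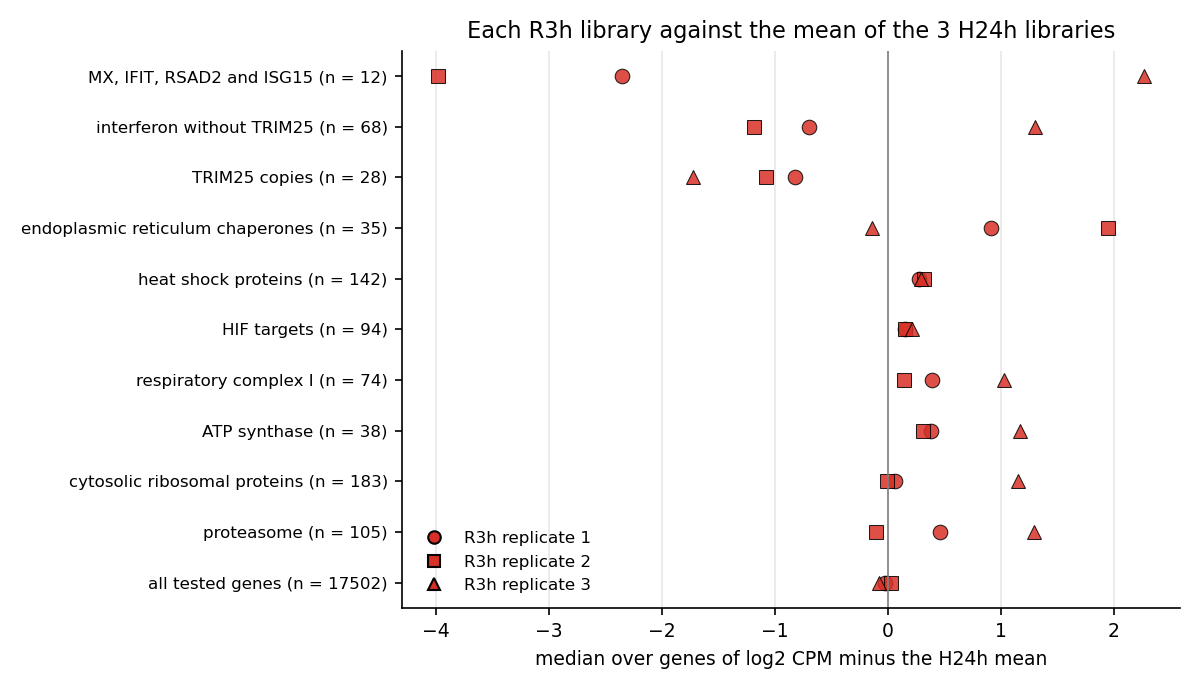
For each gene list (rows, number of tested genes in brackets) the median over its genes of log2 CPM minus the H24h mean is plotted for R3h replicates 1, 2 and 3 (circle, square and triangle). The MX, IFIT, RSAD2 and ISG15 genes lie at -2.35, -3.98 and 2.27, chaperones of the endoplasmic reticulum at 0.92, 1.95 and -0.13, and TRIM25 copies are below 0 in all 3 libraries.

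Chaperones of the endoplasmic reticulum, which fold secreted proteins and are induced by unfolded protein, were higher in R3h replicates 1 and 2. Of 35 tested genes of this group, put together after the values were seen, 33 had a positive fold change; the median was 1.09. It was 0.55 without R3h replicate 2, the library with the highest values, and 1.34 without R3h replicate 3. In R3h replicates 1 and 2, 33 of 35 genes were above the H24h mean, and in R3h replicate 3, 15 of 35 were. MANF (110525202), a secreted factor of this response, stood at 16.2, 22.3 and 46.7 FPKM in H24h and at 71, 151 and 69.8 in R3h (1.84 ± 0.46). The central chaperone hspa5 (100135840) stood at 210, 127 and 164 FPKM against 338, 1099 and 227 (1.76 ± 0.62, or 0.93 without R3h replicate 2). For both the groups were apart, with R3h replicate 2 the highest. DNAJB11 (110501845), a partner of hspa5, stood at 9.74, 11.1 and 18.1 FPKM against 21, 52.2 and 27.6 (1.41 ± 0.39). The chaperone hyou1 (110533505), chosen after its values were seen, stood at 21.8, 11.8 and 16.9 FPKM against 28.6, 102 and 53.5 (1.91 ± 0.54). Calnexin had copies on either side. CANX (110488909) stood at 16.2, 10.6 and 17.3 FPKM against 21.7, 44 and 31.2 (1.20 ± 0.31), and CANX (110504454), chosen later, at 9.93, 9.15 and 13.2 against 5.01, 5.01 and 1.05 (-1.46 ± 0.47). In the longer list of the unfolded protein and integrated stress response, 11 of 102 genes were separated higher (10.8%, against 2.17% of all genes) and 5 lower (4.9%, against 4.34%). Its median was 0.45, or 0.16 without R3h replicate 2 and 0.62 without R3h replicate 3.

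Heat shock proteins differed by a like amount in each R3h library. Their median lay 0.27, 0.32 and 0.30 above the H24h mean (log2 CPM) in R3h replicates 1, 2 and 3. The H24h libraries themselves lay at -0.16, -0.03 and 0.19, so H24h replicate 3 was not far below them. The list shares members with the endoplasmic reticulum chaperones, among them the lowest and highest fold changes of both, -2.61 and 2.88, so the 2 are not separate results. Of 142 tested genes 15 were separated higher (10.6%, against 2.17% of all genes) and 1 lower, and 101 had a positive fold change, with a median of 0.28, or 0.48 without H24h replicate 3. HSPA8 (100301691), the constant cytosolic HSP70, stood at 15, 5.43 and 12 FPKM in H24h and at 27.1, 34.3 and 33.9 in R3h (1.68 ± 0.38). The stress gene GADD45B (110524120) stood at 2.97, 2.45 and 18.2 FPKM against 31.3, 107 and 86.2 (3.40 ± 1.09), and GADD45G (110525971) at 6.55, 5.26 and 9.87 against 27.5, 22.1 and 165 (3.40 ± 0.93, or 1.91 without R3h replicate 3). Both halt the cell cycle after stress, and all R3h libraries were above all H24h libraries. The apoptosis and p53 list, however, had 36 of 77 tested genes above 0 and 41 below, with a median of -0.04. In it 6 genes were separated higher (7.79%, against 2.17% of all genes) and 9 lower (11.7%, against 4.34%). The metal-binding metallothionein mt2 (100136731) stood at 709, 898 and 1562 FPKM against 2139, 2041 and 3929 (1.43 ± 0.48). FKBP5 (110494097), a glucocorticoid target, stood at 43.5, 23.2 and 42.4 FPKM against 94.3, 56 and 76.7 (1.20 ± 0.65), while for the glucocorticoid target Tsc22d3 (110504506) the groups overlapped (0.53 ± 0.53).

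**Figure D4:**
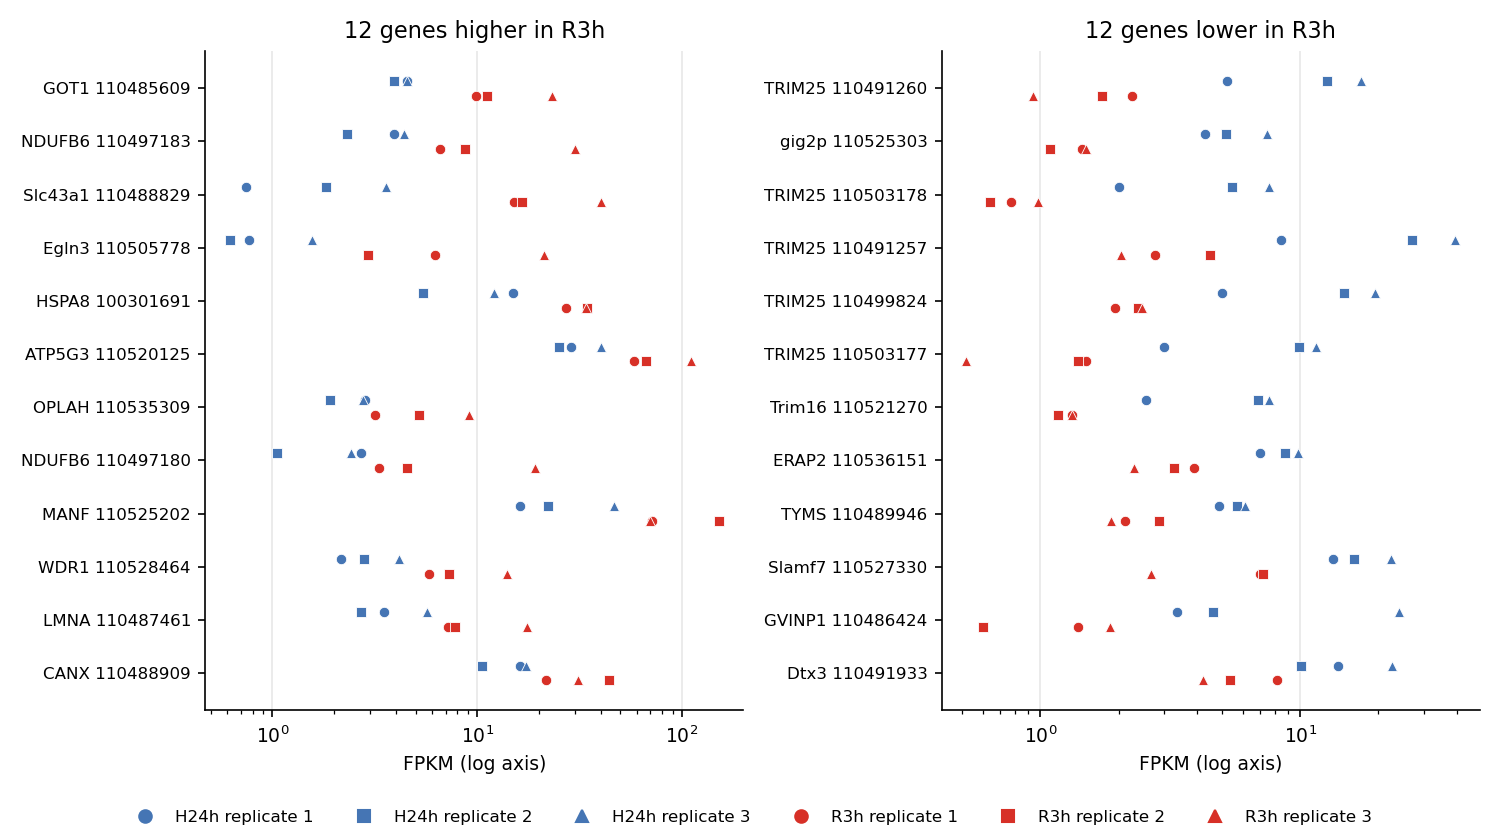
FPKM (horizontal, log axis) of the 12 genes higher and the 12 genes lower in R3h with the smallest unadjusted p among separated genes of at least 5 FPKM in the higher group. Blue marks are H24h and red marks R3h, and the shape gives the replicate. In 9 of the 12 genes on the left the triangle of R3h replicate 3 is the highest value, and 5 of the 12 genes on the right are TRIM25 copies.

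The clearest lower genes were TRIM25 copies, genes for ubiquitin ligases of the antiviral response. TRIM25 (110491260, chromosome 16: 3196571 to 3202433) stood at 5.23, 12.7 and 17.1 FPKM in H24h and at 2.25, 1.73 and 0.94 in R3h (-2.75 ± 0.49), the smallest p of all 17502 genes. TRIM25 (110491257, chromosome 16: 3161427 to 3170291) stood at 8.47, 27 and 39.5 FPKM against 2.77, 4.5 and 2.05 (-2.98 ± 0.64). TRIM25 (110499824, chromosome 21: 6252721 to 6259193) stood at 5.02, 14.7 and 19.3 FPKM against 1.93, 2.37 and 2.47 (-2.50 ± 0.54). In each, H24h replicate 1 was the lowest H24h library and was still above every R3h library. On chromosome 24, 4 copies within 31068377 to 31142923 were all separated lower, with fold changes of -2.78 (110503177), -2.60 (110503178), -3.10 (110503179) and -2.51 (110503476). The last 2 of these were chosen after their values were seen. Of 28 tested TRIM25 copies 10 were separated lower (35.7%, against 4.34% of all genes), 0 higher, and 24 had a negative fold change. Their median was -0.72, or -1.20 without R3h replicate 2 and -1.17 without R3h replicate 3. Copies that lie side by side can share reads, so the number of copies is less certain than the level of the cluster. A copy elsewhere on chromosome 21, Trim25 (110500408), gave 0.49, 0.38 and 0.27 FPKM against 0.18, 0.37 and 27.6, and so was high in R3h replicate 3. The coordinates are those of the deposited table, whose genome build is not given in the sources used here.

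Beyond TRIM25, most genes of the interferon list were below the H24h mean in R3h replicates 1 and 2, but not in replicate 3. Of its other 68 genes, 56 were below that mean in R3h replicate 1 and 60 in R3h replicate 2. In R3h replicate 3, 53 of the 68 were above it. Of these 68 genes 3 were separated lower (4.41%, against 4.34% of all genes). Their median fold change with all libraries was 0.12, which pools these unlike libraries. Single genes were nonetheless separated, but the TRIM16 copies and some of the others given here lie outside that list. Of 14 tested TRIM16 copies 6 were separated lower (42.9%) and 0 higher, with a median of -1.25. Trim16 (110521270) stood at 2.54, 6.88 and 7.56 FPKM against 1.32, 1.17 and 1.32 (-2.13 ± 0.49). The fish antiviral gene gig2p (110525303) stood at 4.3, 5.17 and 7.45 FPKM against 1.45, 1.09 and 1.5 (-1.98 ± 0.40), and the interferon-induced GTPase GVINP1 (110486424) at 3.37, 4.6 and 24 against 1.4, 0.6 and 1.85 (-2.85 ± 0.78, or -1.71 without H24h replicate 3). The aminopeptidase ERAP2 (110536151), which trims peptides for antigen display, stood at 6.98, 8.73 and 9.77 FPKM against 3.89, 3.28 and 2.3 (-1.37 ± 0.35). A second copy, ERAP2 (110526886), was at 0.48, 0.78 and 1.23 FPKM against 0.04, 0.21 and 0.07, and ERAP1 (110535123) at 3.96, 4.69 and 6.91 against 2, 2.57 and 1.48. PARP14 (110531554), an ADP-ribosyltransferase of the interferon response, stood at 2.16, 1.36 and 1.75 FPKM against 0.27, 0.33 and 0.17 (-2.67 ± 0.48), and its relative Parp12 (110501029) at 0.61, 1.24 and 1.46 against 0, 0.11 and 0.16. The second ERAP2 copy, ERAP1 and both PARP genes were chosen after their values were seen. In each of the genes named in this group every R3h library was below every H24h library.

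The antiviral effector genes split the R3h libraries. All 12 tested MX, IFIT, RSAD2 and ISG15 genes were below the H24h mean in R3h replicates 1 and 2, and 10 of 12 were above it in R3h replicate 3. The medians relative to that mean were -2.35, -3.98 and 2.27 (log2 CPM) in R3h replicates 1, 2 and 3. H24h was spread too, with medians of -1.85, 0.78 and 0.97 in its replicates 1, 2 and 3. The mx1 gene (100335041) stood at 1.01, 4 and 12.4 FPKM in H24h and at 0.56, 0.2 and 28 in R3h, and rsad2 (100135876) at 2.79, 15.1 and 36.7 against 2.11, 0.78 and 56.6. Their fold changes were 0.83 ± 1.39 and 0.20 ± 1.31 with all libraries and -3.71 and -3.47 without R3h replicate 3. Over the whole interferon list of 96 genes the median was -0.15. It was -1.02 without that library, but 0.12 without R3h replicate 1, 0.15 without R3h replicate 2 and 0.01 without H24h replicate 3, so its sign rests on single libraries. Of the 96, 13 genes were separated lower (13.5%, against 4.34% of all genes), 10 of them TRIM25 copies, and 0 higher. In N the means of mx1 and rsad2 were 40.2 ± 16.2 and 30.9 ± 13 FPKM (SD). The mx1 and rsad2 genes and this grouping were chosen after the values were seen.

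Markers of blood and immune cells were compared as the mean log2(FPKM + 1) of each list, with exact two-sided permutation tests whose smallest possible p is 0.1. In bulk liver, fewer cells of a type and less RNA per cell cannot be told apart. Macrophage markers (24 genes) averaged 2.88 ± 0.30 (SD) in H24h and 2.29 ± 0.67 in R3h, with an exact p of 0.2; R3h replicate 3 was at 1.52 and the other R3h libraries at 2.74 and 2.61. Of these genes 6 were separated lower (25%, against 4.34% of all genes) and 0 higher. Their median fold change was -0.54, or -0.22 without R3h replicate 3, -0.28 without H24h replicate 1 and -1.01 without R3h replicate 1. The difference in the marker mean, -0.59, was -0.20 without R3h replicate 3. CD163 (110487464), a haemoglobin scavenger receptor of macrophages, stood at 9.49, 6.77 and 9.87 FPKM against 4.5, 3.02 and 0.38, with no overlap. Cathepsin S, CTSS (100136261), was at 29.1, 32.7 and 52.5 FPKM against 24.1, 14.3 and 13.6 (-1.03 ± 0.40). MPO (110532736), the peroxidase of neutrophils, stood at 4.06, 2.65 and 7.94 FPKM against 0.6, 0.92 and 0.52 (-2.70 ± 0.70). The neutrophil list as a whole, however, averaged 2.23 ± 0.11 in H24h and 2.19 ± 0.08 in R3h (exact p = 0.6). Of its 19 genes 9 had a positive fold change and 10 a negative one, with 1 separated lower (5.26%) and 0 higher. Slamf7 (110527330), a receptor of lymphoid cells, stood at 13.3, 16.1 and 22.3 FPKM against 7, 7.18 and 2.66 (-1.55 ± 0.42). The lymphocyte list of 20 tested genes, however, had 9 with a positive fold change and 11 with a negative one. In the lymphocyte list 3 genes were separated lower (15%, against 4.34% of all genes) and 0 higher. The part of a change in cell makeup in the TRIM and interferon values was not tested.

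Erythrocyte markers (29 genes, most of them globins) averaged 4.58 ± 0.69 in H24h and 4.06 ± 0.85 in R3h (exact p = 0.5), with R3h replicate 1 lowest at 3.09. The difference, -0.52, was -0.03 without R3h replicate 1 and -0.20 without H24h replicate 3. Summed FPKM over these markers ran from 826 to 2813 in H24h and from 445 to 1902 in R3h. Hepatocyte markers (42 genes) averaged 8.69 ± 0.45 and 8.09 ± 0.83 (exact p = 0.5), and the liver label was borne out by their summed level of 96162 to 136075 FPKM in H24h and 102803 to 117939 in R3h. R3h replicate 3 was the lowest of the 6 libraries on the mean of hepatocyte markers, at 7.14 against 8.28 to 9.17 in the others, and the difference of -0.60 was -0.12 without it and -0.36 without H24h replicate 1. The main albumin gene alb1 (100499622) stood at 413 FPKM there and at 6867 to 22753 in the other 5. Differences for cholangiocyte, endothelium, stellate, lymphocyte and thrombocyte markers were -0.11, -0.09, -0.28, -0.09 and -0.18, with exact p from 0.2 to 0.8. No marker of these lists was at 0 FPKM in all libraries of R3h or of H24h. Pancreas, intestine and muscle markers had only 2, 3 and 3 tested genes and were not compared.

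Lists of liver functions had negative medians that were nearer 0 without R3h replicate 3. The median was -0.33 for 41 cytochrome P450 genes, -0.32 for 30 bile acid genes, -0.34 for 48 complement genes and -0.22 for 96 genes of coagulation and acute phase. Without R3h replicate 3 these were -0.15, -0.13, -0.01 and -0.05, and without R3h replicate 1 they were -0.61, -0.62, -0.55 and -0.48. Of the bile acid genes 5 were separated lower (16.7%, against 4.34% of all genes) and 0 higher. Of the complement genes 1 was separated lower (2.08%) and 0 higher. For coagulation and acute phase 6 were separated lower (6.25%) and 5 higher (5.21%, against 2.17% of all genes). In the P450 list 7 genes were separated lower (17.1%) and 0 higher. Among them cyp2k4 (110486983) stood at 23.6, 16.8 and 27.8 FPKM in H24h and at 8.38, 16.2 and 4.98 in R3h (-1.14 ± 0.41), and cyp2k1 (110532750), chosen after its values were seen, at 132, 44.1 and 52.6 against 43.2, 10.1 and 3.18 (-1.81 ± 0.81, or -3.52 without R3h replicate 1). Nr0b2 (110488188), which encodes a nuclear receptor that damps bile acid production, stood at 82.2, 61.8 and 37 FPKM against 27.6, 27.1 and 23.9 (-1.17 ± 0.58), so it was lower in all 3 R3h libraries. The clotting factor gene F10 (110485251) was separated lower (-1.59 ± 0.48). C-reactive protein, CRP (110491696), a plasma protein of inflammation, was separated higher, at 269, 215 and 288 FPKM against 519, 389 and 548.

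Cholesterol synthesis had the lowest all-library median of the pathway lists, -0.66 over 36 genes, but it was -0.11 without H24h replicate 2, the library with the highest levels of these genes, and -0.60 without R3h replicate 3. Of these, 29 genes had a negative fold change, 4 were separated lower (11.1%, against 4.34% of all genes) and 1 higher (2.78%, against 2.17%). SQLE (110511248), squalene epoxidase, stood at 3.29, 23.5 and 9.37 FPKM in H24h and at 6.07, 2.1 and 1.73 in R3h, a fold change of -1.92, or -0.61 without H24h replicate 2, and Hsd17b7 (110530031), a later enzyme of the pathway, at 3.11, 7.77 and 5.57 against 2.73, 1.74 and 0.8 (-1.63 ± 0.81, or -1.01). Both were chosen after their values were seen, and H24h replicate 2 was the highest library of each. Fatty acid oxidation as a list was centred near 0, with a median of -0.07. The 2 named copies of CPT1A, which admits fatty acids to mitochondria, differed in direction. CPT1A (100136831) stood at 23.8, 11.5 and 13.5 FPKM against 6.88, 8.73 and 3.79 (-1.24 ± 0.44), and CPT1A (110526808) at 5.33, 3.17 and 7.11 against 6.3, 6.91 and 9.17 (0.64 ± 0.26). Fatty acid synthase, FASN (110499230), chosen later, was at 3.81, 4.33 and 7.77 FPKM against 4.43, 6.9 and 55.7, a fold change of 2.14, or 0.16 without R3h replicate 3.

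**Figure D5:**
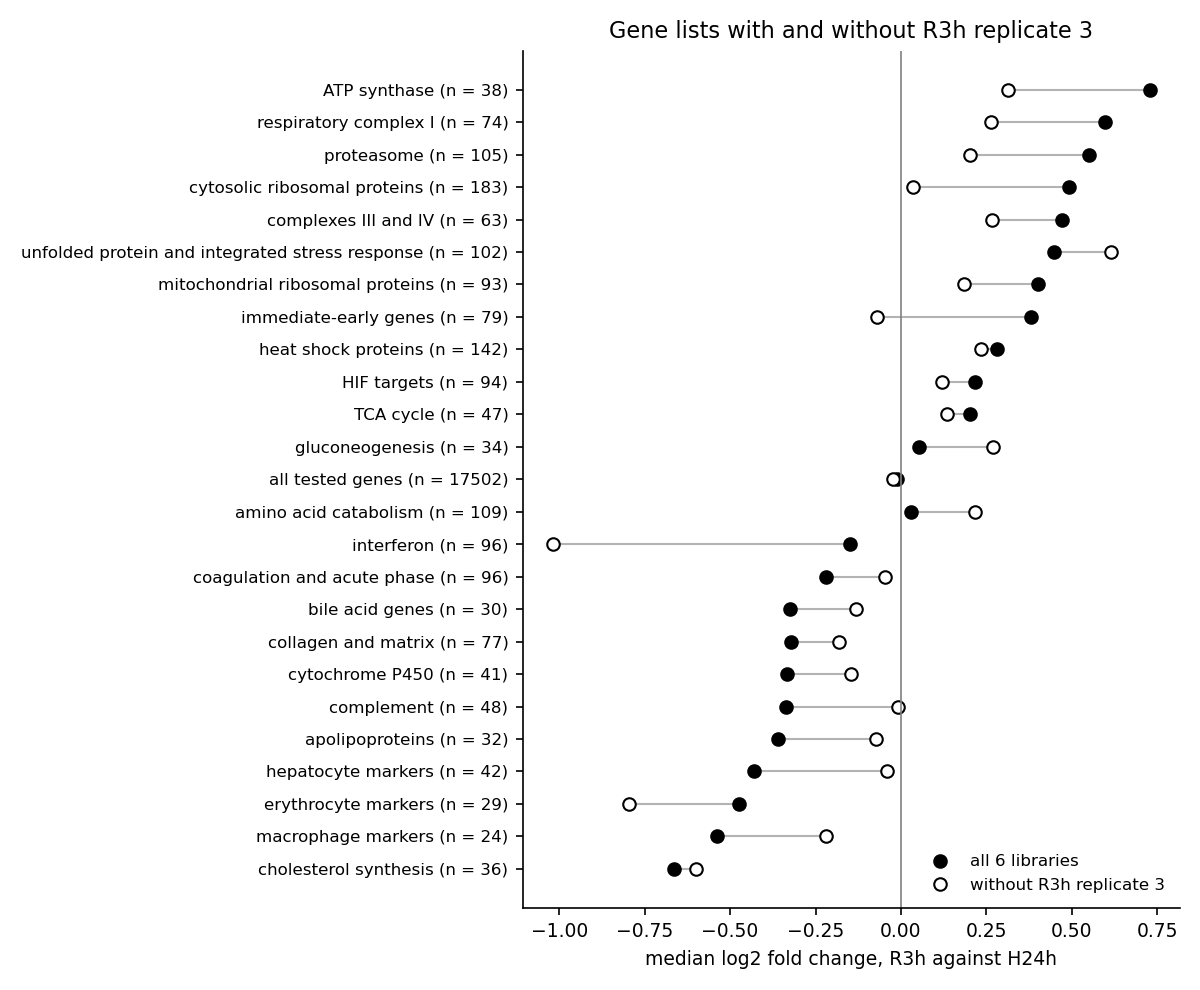
Median log2 fold change in R3h against H24h (horizontal) of gene lists and of all tested genes, with all 6 libraries (filled) and without R3h replicate 3 (open), the number of tested genes in brackets. The interferon list goes from -0.15 to -1.02 and cytosolic ribosomal proteins from 0.49 to 0.04, whereas cholesterol synthesis and heat shock proteins differ little with this library (cholesterol synthesis goes to -0.11 without H24h replicate 2).

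Amino acid handling gave the gene with the smallest p among the higher ones. GOT1 (110485609), the cytosolic aspartate aminotransferase, stood at 4.52, 3.91 and 4.53 FPKM in H24h and at 9.87, 11.2 and 23.2 in R3h (1.82 ± 0.35), and its fold change without R3h replicate 3 was 1.35. Slc43a1 (110488829), a transporter of large neutral amino acids, stood at 0.74, 1.83 and 3.58 FPKM against 15.1, 16.6 and 40.2 (3.62 ± 0.79). The H24h values of Slc43a1 were also below the means of N, H3h and H12h, which were 17.2, 41.1 and 31.1 FPKM. The 2 tested of 3 ARG2 genes, for mitochondrial arginase, were separated higher at low level. ARG2 (110506002) stood at 0.04, 0.04 and 0.1 FPKM against 0.96, 0.77 and 0.65 (3.86 ± 0.97), and ARG2 (100136180), chosen later and overlapping it on chromosome 25, at 0.12, 0 and 0.11 against 0.99, 0.78 and 7.41. As a list, 109 genes of amino acid catabolism had a median of 0.03, which ran from -0.12 without R3h replicate 2 to 0.22 without R3h replicate 3. In it 5 genes were separated higher (4.59%, against 2.17% of all genes) and 2 lower (1.83%, against 4.34%). The glutathione-cycle enzyme gene OPLAH (110535309) was separated higher (1.29 ± 0.31, or 0.80 without R3h replicate 3).

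Further genes named by rule have varied roles. The translation inhibitor eif4ebp3l (110504630), held in check by mTOR, stood at 13.4, 7.82 and 9.44 FPKM in H24h and at 31.4, 29.3 and 34.3 in R3h (1.72 ± 0.62). TEF (110499096), a clock output factor, stood at 0.77, 1.11 and 1.26 FPKM against 2.12, 3.93 and 4.6 (1.77 ± 0.47). The transferrin receptor TFRC (110509090), which takes up iron, stood at 15.2, 11.1 and 18.2 FPKM against 22.5, 26.7 and 30.1 (0.92 ± 0.29). All 3 were separated. The list of mTOR brakes, however, was not higher as a whole. Of its 27 tested genes 10 had a positive fold change and 17 a negative one, with a median of -0.23. In it 1 gene was separated higher (3.7%, against 2.17% of all genes) and 0 lower. The clock list had 15 of 50 tested genes above 0 and 35 below, with a median of -0.17, or 0.04 without R3h replicate 3. In the clock list 1 gene was separated higher (2%) and 2 lower (4%, against 4.34% of all genes). Also separated higher were the actin-disassembly factor WDR1 (110528464, 1.62 ± 0.41), the nuclear lamina gene LMNA (110487461, 1.54 ± 0.39) and the collagen chaperone SERPINH1 (100135844, 1.12 ± 0.44). The collagen and matrix list went mostly the other way, with 55 of 77 tested genes below 0 and a median of -0.32. In it 2 genes were separated higher (2.6%, against 2.17% of all genes) and 10 lower (13%, against 4.34%). Thymidylate synthase, TYMS (110489946), which makes a DNA building block, stood at 4.87, 5.73 and 6.12 FPKM against 2.11, 2.87 and 1.87 (-1.25 ± 0.34), and the ubiquitin ligase Dtx3 (110491933) at 14, 10 and 22.5 against 8.11, 5.36 and 4.23 (-1.25 ± 0.34).

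A few genes were nearly silent in R3h. IL6ST (110537852), a copy of the shared receptor chain for interleukin 6, had 68, 24 and 69 counts in H24h and 0, 0 and 0 in R3h. Its level was low in H24h too, at 0.52, 0.15 and 0.51 FPKM. Against a floor of 3 counts over the R3h group, its share of the counts was at least 54-fold lower in R3h. The more abundant copy, Il6st (110509538), was at 7.25, 4.66 and 6.73 FPKM in H24h and at 4.43, 8.1 and 8.88 in R3h. Fn1 (110534593), a copy of fibronectin of the extracellular matrix, had 246, 401 and 426 counts in H24h and 0, 3 and 0 in R3h. FN1 (110527221), the main fibronectin gene, stood at 92.5, 52.7 and 55.8 FPKM against 38.4, 89.8 and 71.5 (0.03 ± 0.31). The minor copies of both genes were thus absent or nearly so in R3h while the main copies overlapped between the groups. Il6st (110509538) and FN1 (110527221) were chosen after their values were seen.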

How the data were processed

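Liver RNA of 15 libraries was sequenced. The submitters' processing notes name TopHat2 (2.1.1) with Bowtie2 (2.2.8). Which genome build, annotation and counter served is not given in the sources used here. The authors deposited, for every gene, its raw count and its FPKM in each library. Counts were tested in edgeR 4.0.16 (R 4.3.3) by the quasi-likelihood F-test with TMM scaling, all 15 libraries and 5 group means in 1 fit. Tests were two-sided, adjusted by Benjamini-Hochberg over 17502 genes, with calls at an adjusted p under 0.05. Each SE is approximate, being the size of the log2 fold change over the root of its F value. Alternatives used DESeq2 1.42.0, limma 3.58.1, other scalings and filters, and libraries left out. The edgeR script was tested on simulated data.

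Symbols are those of the deposited table, for 29141 genes, and RefSeq's (USDA_OmykA_1.1) for 579 others; 31271 identifiers were found there. Near-identical copies can share reads. The members and the 60 gene lists (48 pathways, 12 cell types) were chosen with earlier results of these data known. Gene families, among them the EGLN, TRIM25 and TRIM16 copies, were grouped outside these lists, and their shares are descriptions only. Genes were named by rule: 12 in each direction by p among separated genes of at least 5 FPKM with a symbol, 2 members of each list with the smallest p, and a fixed set of hypoxia, hormone and stress genes. Not every gene the rule picks is given. Some genes and loci are not reported here.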

Additional observations from a re-analysis of the deposited data

How the results depend on the processing

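The count of called genes, 0 higher and 0 lower, was the same with the 6 libraries alone, RLE or upper-quartile scaling, either other filter on low values and limma on log2(FPKM + 1) or log2(FPKM + 0.1). It was 27 higher and 24 lower by DESeq2 and 2 higher by limma-voom with library weights. Of the 51 DESeq2 calls, 45 had groups that did not overlap in FPKM. Leaving out 1 library gave 0 to 0 genes higher and 0 to 4 lower; the 4 came without R3h replicate 2. No label pairs the libraries by replicate number. Deviations of same-numbered libraries from their group means correlated at -0.01, -0.08 and 0.26. Pairs of unlike number ranged from -0.35 to 0.36, so these correlations cannot settle whether libraries are paired. With the replicate number as a block 0 genes were called in either direction. Fold changes of single genes turned sign as follows, and the cause was not tested beyond the library left out. With library weights they were -0.0026 for hif1a, -0.39 for Trim25 (110500408), -0.27 for FN1 (110527221), -0.040 for Il6st (110509538), -3.16 for mx1 and -3.06 for rsad2. On log2(FPKM + 1) and log2(FPKM + 0.1) they were -0.44 and -1.12 for mx1, -0.95 and -1.29 for rsad2 and -0.046 and -0.047 for FN1, which was also at -0.094 with upper-quartile scaling and -0.018 with a mean of at least 1 FPKM. With the replicate block mx1 was at -0.69 and rsad2 at -1.12. Over single libraries left out, the range was -3.71 to 1.72 for mx1, -3.47 to 0.91 for rsad2, -0.43 to 5.21 for Trim25 (110500408), -0.20 to 0.68 for Egln3 (110497687), -0.057 to 1.10 for hif1an, -1.23 to 0.030 for IGFBP1, -0.017 to 0.73 for G6PC (110499065), -0.053 to 0.34 for hif1a, -1.12 to 0.056 for alb1 and -0.17 to 0.26 for FN1. The marker difference ranged from -0.18 to 0.015 for endothelium and from -0.11 to 0.0021 for neutrophils. Of the 88 named genes, leaving out R3h replicate 3 moved 23 fold changes by over 1.5 times, and each other library 4 to 10. The median of 35 of 68 lists and families kept its sign under all 16 alternatives; upper-quartile scaling turned those of gluconeogenesis and amino acid catabolism to -0.06 and -0.06. Upper-quartile scaling moved the median of all genes to -0.12 and log2(FPKM + 0.1) to -0.12, against -0.01 in the main setting. Depth of 53993396 to 65922994 counts limits the genes of few counts most.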
